A study of Mus musculus with 4 samples.

Results

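The sites of N6-methyladenosine (m6A) described here are those of site-rich genes, the named genes with at least 25 called sites in each of 2 mice. Genes without a name, joined gene names and Acod1 were left out by the rule. The rule left 89 genes of 7827 with a site in both mice, or 1.14%. Their 3143 sites in mouse 1 and 3204 sites in mouse 2 are parts of 45668 and 47747 sites in all. These genes were chosen by the number of their called sites, so that number is given as a description, and the folds of the same tables are described without a test. The RNA came from macrophages grown out of the bone marrow of 2 wild-type mice and exposed in every case for 3 h to lipopolysaccharide (LPS); untreated cells are not analysed here, and LPS is a bacterial cell wall component that activates macrophages through Toll-like receptor 4. The RNA had been selected for poly(A) tails. The abbreviation NTC in the names of the tables is left unread, since no label spells it out. Each mouse gave 1 library immunoprecipitated with an antibody against m6A (IP) and 1 input library of the same RNA, and a site is a single base with the authors' score and the authors' fold of read starts in the IP over the input. With 1 IP library per mouse, no error belongs to the fold of a site, and both mice are printed side by side.

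m6A is a methyl group added to adenosines inside messenger RNA by a nuclear writer complex, and reader proteins that bind it affect splicing, translation and decay. It is known to lie mostly in long internal exons and around the stop codon, in a short sequence context with a C after the methylated A, and to be sparse close to exon junctions. An adenosine next to the cap of a messenger RNA can carry a related mark, m6Am, which antibodies against m6A also bind. In macrophages, m6A is known on transcripts of innate immune signalling.

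The sequences around some sites show what a called base is. RefSeq windows of GRCm38.p6, which shares its coordinates with mm10, hold 250 bases before and 50 bases after gene starts. They covered the 21 bases around 71 of the 3507 sites called in either mouse (2.02%), in 36 of the 89 genes, and 65 of the 71 were annotated as 5' UTR. In all 71 the called base was an A, as it was at all 6178 covered sites of other genes. The 10 covered sites with the highest mean log2 fold among those called in both mice, without further sites of Mgat1, are given 5' to 3' on the transcribed strand, with the called A in capitals, and the C after it in capitals where there is one.
Jun, chr4:95052186-95052206, minus strand: ataaggactcAgagttgcact
Mgat1, chr11:49250581-49250601, plus strand: aaggccaaccAgaccggacga
Emilin2, chr17:71310973-71310993, minus strand: cctgtgcgtcAttgagggacc
Tor1aip2, chr1:156040883-156040903, plus strand: tacaggcgacAttctgccgtg
Tlr2, chr3:83841588-83841608, minus strand: cccttccctcACttccaggtc
Pik3r5, chr11:68432134-68432154, plus strand: gagacccggcAgatgctggga
Zfp800, chr6:28261914-28261934, minus strand: ggggtcagtcAgtcgctccct
Rassf4, chr6:116673806-116673826, minus strand: tgatccctgcAgcagatgcag
Slfn8, chr11:83020799-83020819, minus strand: gaactgagccAgttcgctgtt
Hivep2, chr10:14127443-14127463, plus strand: gatggagagaACtgtgttata
Those of Tlr2 and Hivep2 have a C after the called A, and the others do not. The called A of Zfp800 lies 1 base from a RefSeq start of its gene and that of Slfn8 2 bases from one. Antibodies against m6A also bind m6Am next to the cap, and which mark these sites carry was not tested. The site of Jun had folds of 50.9 in mouse 1 and 45.5 in mouse 2, and that of Mgat1 had 69.2 and 28.2. A site of the paralogue Slfn9 lies in a similar stretch, had folds of 9.03 and 8.67, and is given beside that of Slfn8 because the authors' handling of reads from such copies is not given in the sources used here.
Slfn9, chr11:82991817-82991837, minus strand: gaattgagccAattcgctgtg

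Over all covered sites, the pair AC, with the called base as its A, was present at 23 of 71 sites of site-rich genes (32.4%) and at 1143 of 6178 sites of other genes (18.5%), and 20.8% of all adenosines in the RefSeq start windows are followed by C. The core GGAC, with the called base as its A, was found at 6 of the 71 (8.45%), at 2.99% of the other covered sites and at 1.66% of all adenosines of the windows. A C before the called A was present at 45 of the 71 (63.4%), at 59.8% of the other covered sites and at 29.4% of all adenosines. Each motif was read on the transcribed strand at the called base only, and the pairs and the core overlap each other. Nearly all covered sites lie next to gene starts, so these shares do not describe the coding sequence, where most sites of these genes lie.

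Sites of the 89 genes lay mostly in coding sequence. Coding sequence (CDS) held 66.5% of their sites in mouse 1 (exact 95% interval 64.8% to 68.2%) and 66.9% in mouse 2 (65.2% to 68.5%), against 36.9% of all other sites in both mice. The 3' UTR held 20.3% in both mice, against 34.1% and 34.7% of the other sites, and the 5' UTR held 7.32% and 7.27%, against 19.8% and 19.5%. In mouse 1 the share in coding sequence was 32.4% in genes with 1 to 9 sites and 48.0% in other genes with 10 to 24 sites. In 69 of the 89 genes more than 50% of the sites of mouse 1 lay in coding sequence, and in 68 those of mouse 2. The 3' UTR held the majority in 7 and 10 genes, and the 5' UTR in none. Intervals cover counting error only and sites of a transcript are not independent, so no test was made of these differences.

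**Figure D1:**
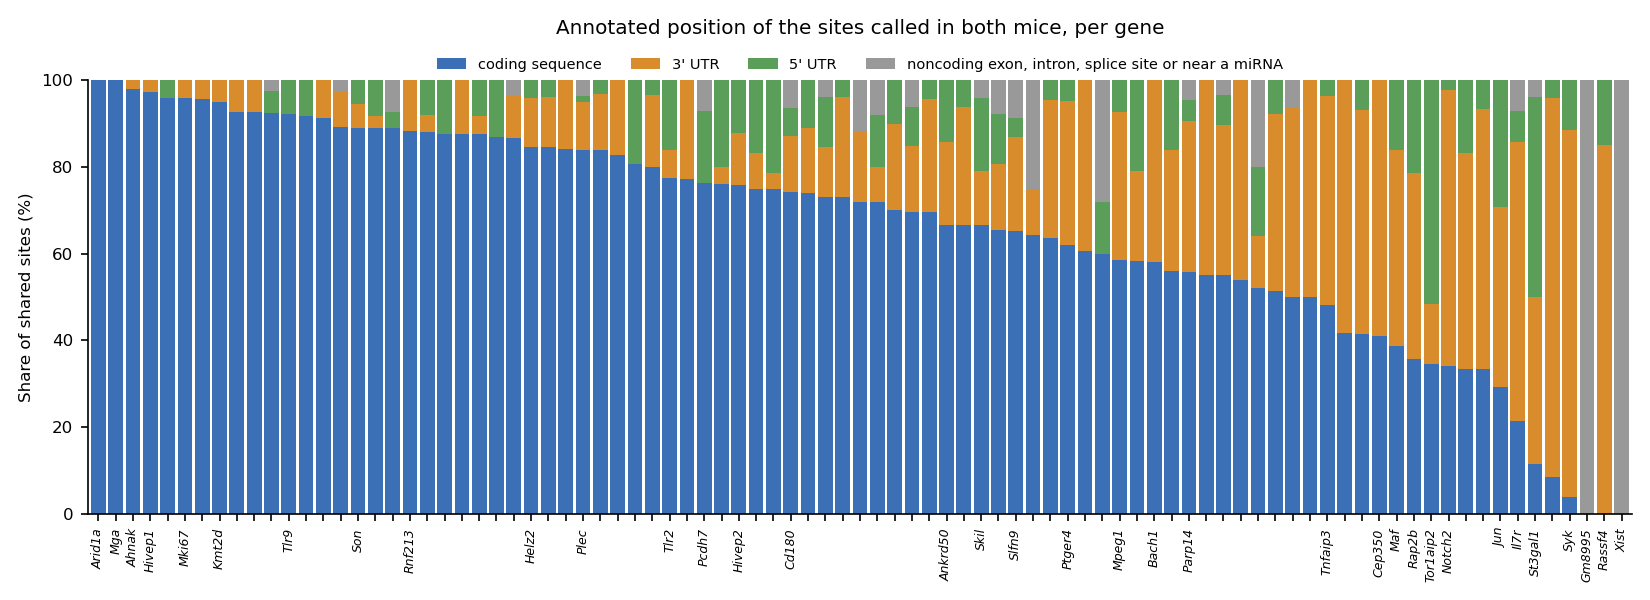
Share of the sites called in both mice, in percent, by annotated position for each of the 89 site-rich genes, ordered by the share in coding sequence, with names under the genes that the text describes most. Coding sequence makes up most of the bar for most genes, while Rassf4 and Syk carry their sites in the 3' UTR and Gm8995 and Xist in noncoding exons.

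The median gene of the 89 carried 31 sites in each mouse, with a range of 25 to 117 in mouse 1 and of 25 to 115 in mouse 2. The counts of the mice differed by at most 8 sites, in Rassf4 with 40 and 48. Just inside the limit, 27 genes had 25 to 27 sites in the mouse with fewer, and just outside it 60 genes had 22 to 24, among them Tlr4 with 24 and 26, Csf1 with 24 and 26, and Nlrp3 with 24 and 26. The sites of the genes just inside had a median fold of 23.1 in both mice, and those just outside 21.1 and 21.4, while coding sequence held 65.1% and 66.0% of the sites inside and 51.9% and 50.9% of those outside. When genes were chosen in mouse 1 alone, 89 of 96 had at least 25 sites in mouse 2, and the lowest had 21. Chosen in mouse 2 alone, 89 of 118 reached 25 sites in mouse 1, and the lowest had 19.

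**Figure D2:**
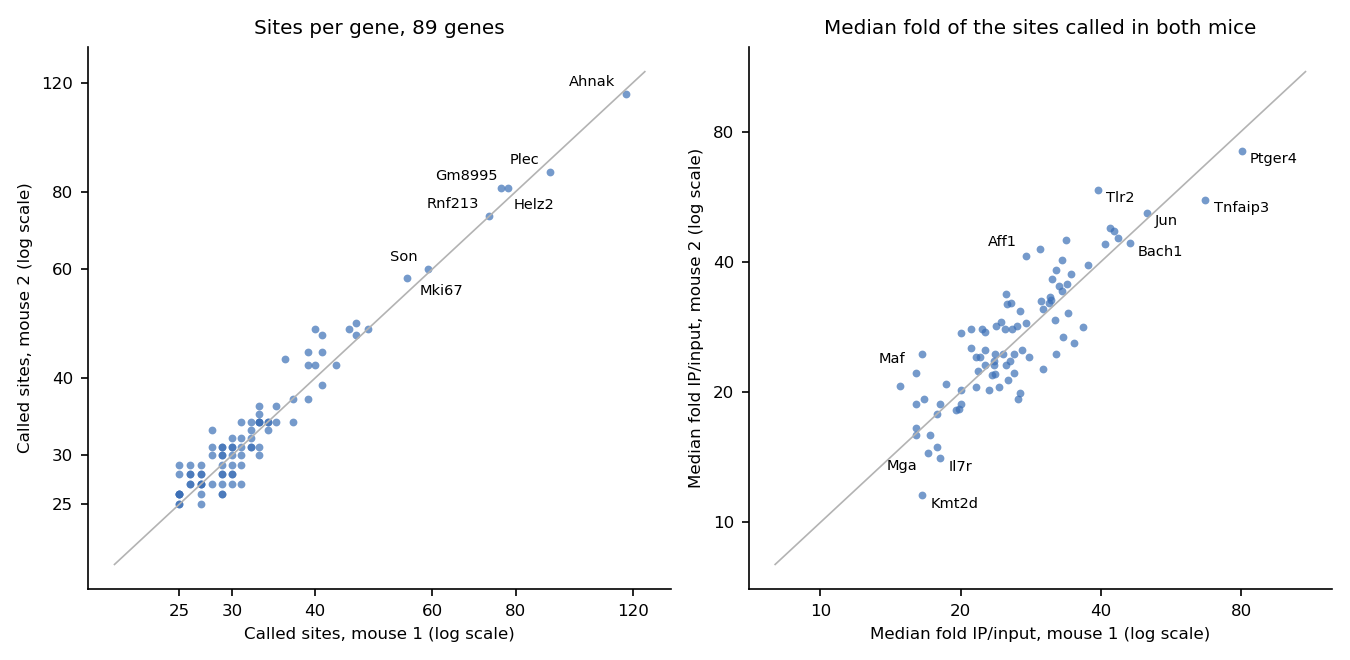
Left, number of called sites of each of the 89 genes in mouse 1 against mouse 2; right, median fold of IP over input over the sites that both mice share, mouse 1 against mouse 2 (log axes; points are genes, the grey line marks equal values). Counts lie close to the line, and the medians of Ptger4, Tnfaip3, Jun and Tlr2 stand at the upper end in both mice.

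The most sites were carried by Ahnak, Plec, Gm8995, Helz2, Rnf213, Son, Mki67, Ankrd50, Notch2 and Parp14, which together held 21.9% of the sites in mouse 1 and 21.8% in mouse 2. Ahnak encodes a giant scaffold protein beneath the plasma membrane, and 114 of its 117 sites in mouse 1 and 113 of its 115 in mouse 2 lay in coding sequence, spread over 17051 bases in mouse 1. The median fold of its 104 shared sites was 24.7 and 24.6. Plec encodes plectin, a linker of the cytoskeleton, with 90 and 86 sites, a shared median of 33.1 and 34.3, and a block of 61 sites in mouse 1 and 62 in mouse 2 within 5528 bases. Its strongest shared site, in coding sequence on chromosome 15 at 76177870, had folds of 516 and 454. In the list of giant structural proteins 2 of 21 genes were site-rich, where 1.14% of all genes with a site in both mice were. The list's median was 7 sites in mouse 1 and 6 in mouse 2. This list and those below were written with earlier results of these data known, so nothing is read from such shares. The motor subunit Dync1h1 had 7 and 4 sites, the nuclear envelope protein Syne1 had 2 and 2, and the actin linker Macf1 had 19 and 23.

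Son encodes a splicing cofactor of nuclear speckles and Mki67 the proliferation marker Ki-67, a coat of mitotic chromosomes. Son had 59 and 60 sites, with a block of 44 and 45 sites within 3956 bases. Mki67 had 55 and 58 sites, all but 2 in each mouse in coding sequence, and its shared median fold of 18.6 and 20.9 lay below that of Plec in both mice. In the list of RNA-binding and splicing proteins Son was the only one of 27 that was site-rich, where 1.14% of all genes with a site in both mice were. The list's median was 11 and 12 sites. The m6A reader gene Ythdf2 had 16 and 22 sites, and the splicing scaffold gene Srrm2 had 19 and 21.

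Of the 89 genes, 9 were in a list of 33 interferon-induced genes, which does not hold all such genes. Among the 33 genes of that list, all with a site in both mice, Rnf213, Helz2, Parp14, Slfn5, Slfn8, Znfx1, Nlrc5, Samd9l and Adar were site-rich, and the list's median was 13 and 14 sites. Over all genes with a site in both mice the share of site-rich genes was 1.14%. The list was written with earlier results of these data known, so nothing is read from the difference. Helz2, a helicase and nuclear receptor coactivator, carried 76 and 81 sites. Its strongest site, on chromosome 2 at 181235069 in coding sequence, had folds of 572 and 639, the highest mean log2 fold of any site of the 89 genes. Rnf213, a giant ubiquitin ligase, carried 73 sites in each mouse, with a shared median of 37.5 and 39.3. Parp14, an ADP-ribosyltransferase, had 45 and 48 sites. Its site with the highest mean log2 fold over both mice lay in the 3' UTR on chromosome 16 at 35834183. That site had folds of 127 and 630, which lay far apart. Another 3' UTR site of Parp14, at 35834409, was higher in mouse 1, with folds of 279 and 152. Samd9l, a restriction factor of poxviruses, had 39 and 44 sites, and the RNA-editing enzyme gene Adar had 26 and 29. Other members of the list ranged from Mx2 with 1 and 1 and Usp18 with 2 and 3 to Ifit2 with 22 and 23 and Parp10 with 22 and 25. The Schlafen genes Slfn5, Slfn8 and Slfn9, which lie side by side on chromosome 11, had 33 and 30, 39 and 37, and 25 and 29 sites. The strongest shared site of Slfn9 had folds of 259 and 311, and that of Slfn5 had 58.2 and 76.4.

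Toll-like receptors recognise microbial molecules at the cell surface or in endosomes, and 7 of the 22 genes of the list of these receptors and their signalling were site-rich. Of the 22, 20 had a site in both mice, and the share of site-rich genes over all genes with such sites was 1.14%. The list was written with earlier results of these data known, so nothing is read from the difference. The 7 were the receptors Tlr2, Tlr3, Tlr7, Tlr9 and Tlr13, the receptor relative Cd180 and the kinase adaptor Tab2. The list's median was 15.5 and 17 sites. Tlr2, which senses bacterial lipoproteins, had 32 and 33 sites, of which 25 and 26 lay in coding sequence, and a shared median fold of 39.4 and 58.7. Tlr7 and Tlr9, endosomal receptors of RNA and DNA, had 33 and 31 and 31 and 29 sites. Their shared medians were 26.4 and 28.4 for Tlr7 and 17.8 and 17.8 for Tlr9, so Tlr9 lay below Tlr2 in both mice. Tlr3, a receptor of double-stranded RNA, had 26 and 28 sites (median 27.1 and 25.04), and Tlr13, a receptor of bacterial ribosomal RNA, had 29 and 31 (21.8 and 22.4). Cd180 had 32 sites in each mouse, 31 of them shared. In Tlr7, 32 of 33 sites of mouse 1 lay in a block of 3458 bases, in Tlr9 29 of 31 within 2795 bases, and in Tlr3 24 of 26 within 2130 bases. Among the other receptors, Tlr4 had 24 and 26 sites, just outside the limit, Tlr1 16 and 16, Tlr6 15 and 18, Tlr8 17 and 19, and Tlr5 none in either table.

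Other innate sensors and immune receptors were among the 89. The cytosolic sensors of bacterial peptidoglycan Nod1 and Nod2 had 27 and 27 and 37 and 37 sites, with shared medians of 25.1 and 23.1 for Nod1 and of 34.6 and 37.6 for Nod2. The cytokine receptor genes Il4ra, Il10ra and Il7r had 34 and 34, 30 and 29, and 29 and 29 sites. Their medians differed: Il10ra, the receptor chain of the anti-inflammatory cytokine IL-10, had 40.9 and 43.9, Il4ra had 32.6 and 35.2, and Il7r had 18.1 and 14.1. In Il4ra, 32 of 34 sites of mouse 1 and 33 of 34 of mouse 2 lay within 2091 bases. Mpeg1, which encodes the pore-forming protein perforin-2 of macrophages, had all 41 sites of mouse 1 and all 44 of mouse 2 in a block of 3982 bases, and all 41 were called again in mouse 2. This gave 9.41 sites per kb of its gene, against a median of 1.25 over the 89 genes. Maf had 9.75, but 11 of its sites in each mouse lie outside its RefSeq gene. Grouping by these roles was made after the names were known.

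**Figure D3:**
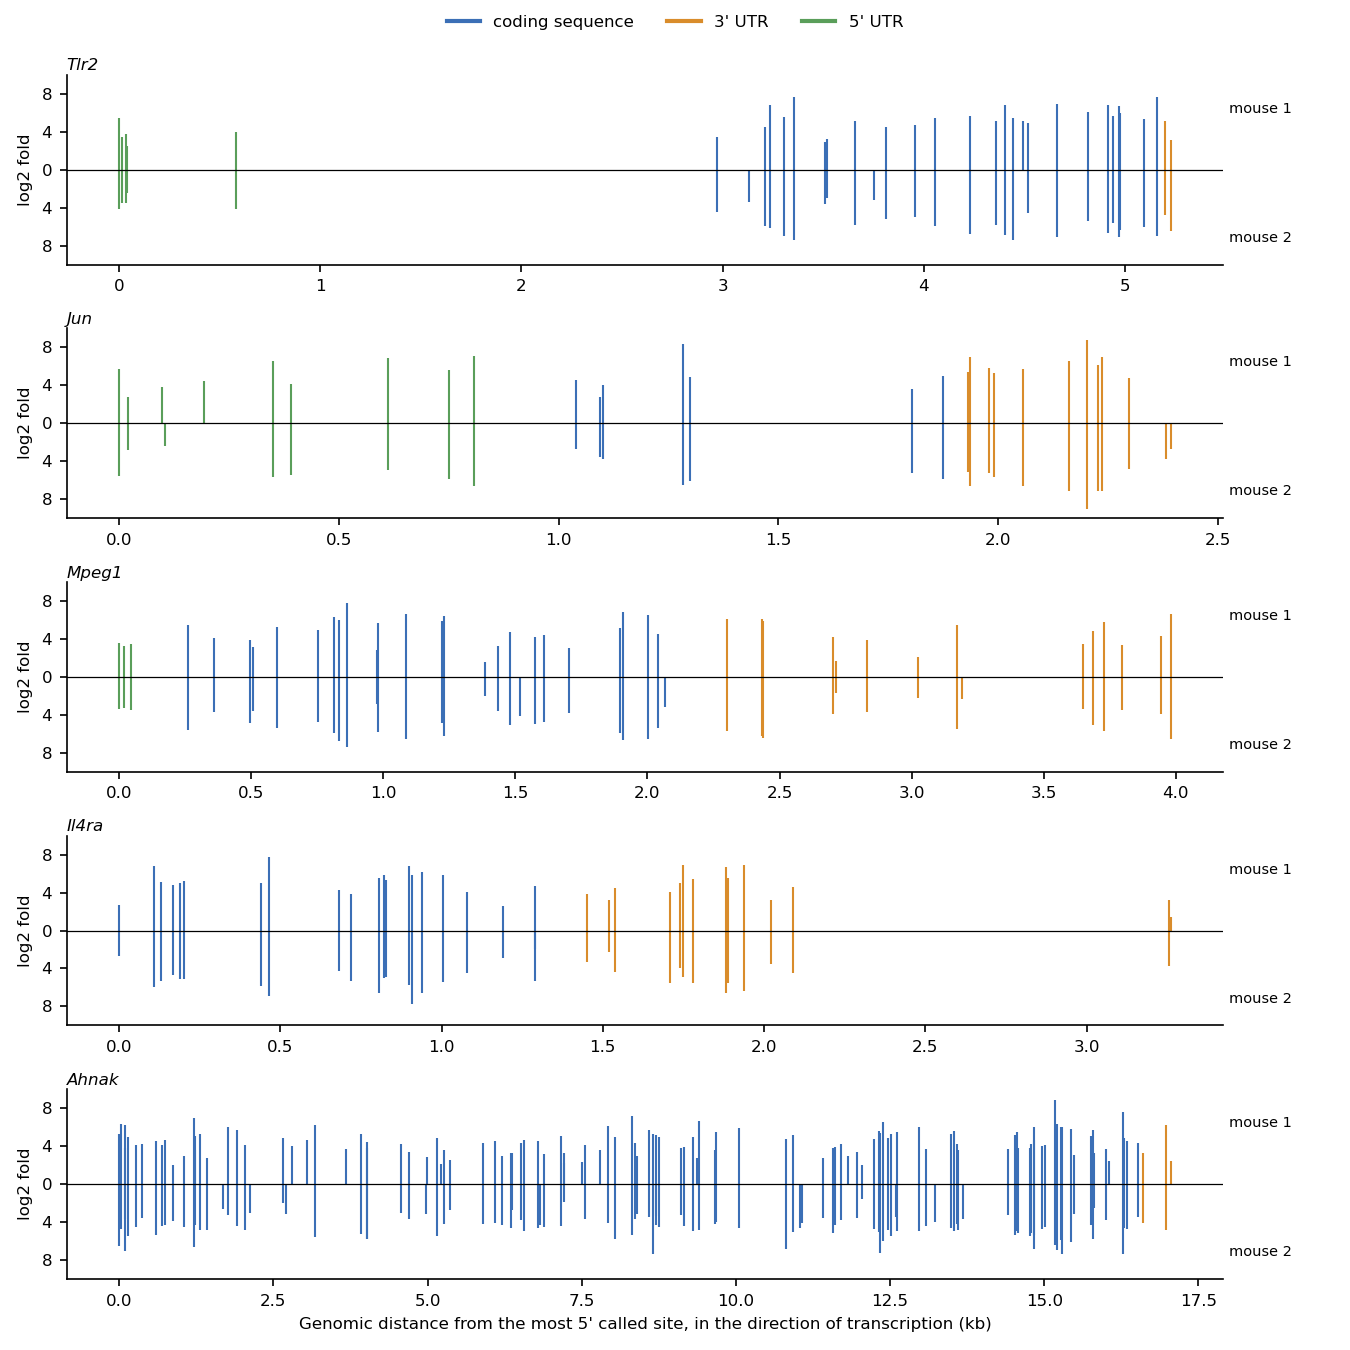
Position of each called site in Tlr2, Jun, Mpeg1, Il4ra and Ahnak, as genomic distance in kb from the most 5' called site in the direction of transcription, with the log2 fold of IP over input upwards for mouse 1 and downwards for mouse 2; colours give the annotated position. Most lines are mirrored in the other mouse, and the sites of Mpeg1 run through the gene without a gap over 500 bases, whereas Tlr2 has a gap between its 5' UTR and coding sites.

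By the median over shared sites, Ptger4 had the highest fold, with 80.2 and 72.2 over 21 sites, followed by Tnfaip3 with 67.0 and 55.6 over 27, Jun with 50.2 and 52.0 over 24, Tlr2, and Bach1 with 46.1 and 44.2 over 31. Ptger4 encodes the prostaglandin E2 receptor EP4. Over all its sites, shared or not, its median was 35.5 and 49.1, so its place rests on the shared sites. Tnfaip3, which encodes the ubiquitin-editing enzyme A20 that restrains NF-kB, had 27 and 28 sites, of which 27 in each mouse were enriched, taken as a fold of at least 8 (a log2 fold of 3). In the list of NF-kB subunits and feedback inhibitors Tnfaip3 was the only site-rich gene of 24, where 1.14% of all genes with a site in both mice were site-rich. The list's median was 9 sites in each mouse. Jun, a subunit of the transcription factor AP-1, had its 26 sites of mouse 1 within 2300 bases, as 9 in the 5' UTR, 10 in the 3' UTR and 7 in coding sequence. Its strongest site, on chromosome 4 at 95049993 in the 3' UTR, had folds of 443 and 528. Bach1 encodes a repressor of haem-responsive genes.

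The lowest medians over shared sites were those of Kmt2d (16.5 and 11.6), Mga (17.05 and 14.4), Il7r, Cep350 (16.05 and 15.9) and Skil (17.8 and 14.9), all still above the limit of 8. Kmt2d encodes a histone H3 lysine 4 methyltransferase, Mga a partner of Max, and Skil a repressor of TGF-beta signalling. Of the sites of Kmt2d in mouse 1, 20 of 31 were called in mouse 2, the smallest share among the 89 genes. In the list of chromatin regulators 5 of 40 genes were site-rich, where 1.14% of all genes with a site in both mice were. They were Kmt2d, Arid1a, Tet2, Hivep1 and Hivep2, and the list's median was 11 and 12.5 sites. Hivep1 and Hivep2, placed in that list although they are zinc finger transcription factors that bind enhancers, had 41 and 47 and 36 and 43 sites. Arid1a, a subunit of SWI/SNF remodelling complexes, had 28 and 33, of which 27 and 33 lay in coding sequence. Tet2, which oxidises methylcytosine in DNA, had 25 and 26.

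**Figure D4:**
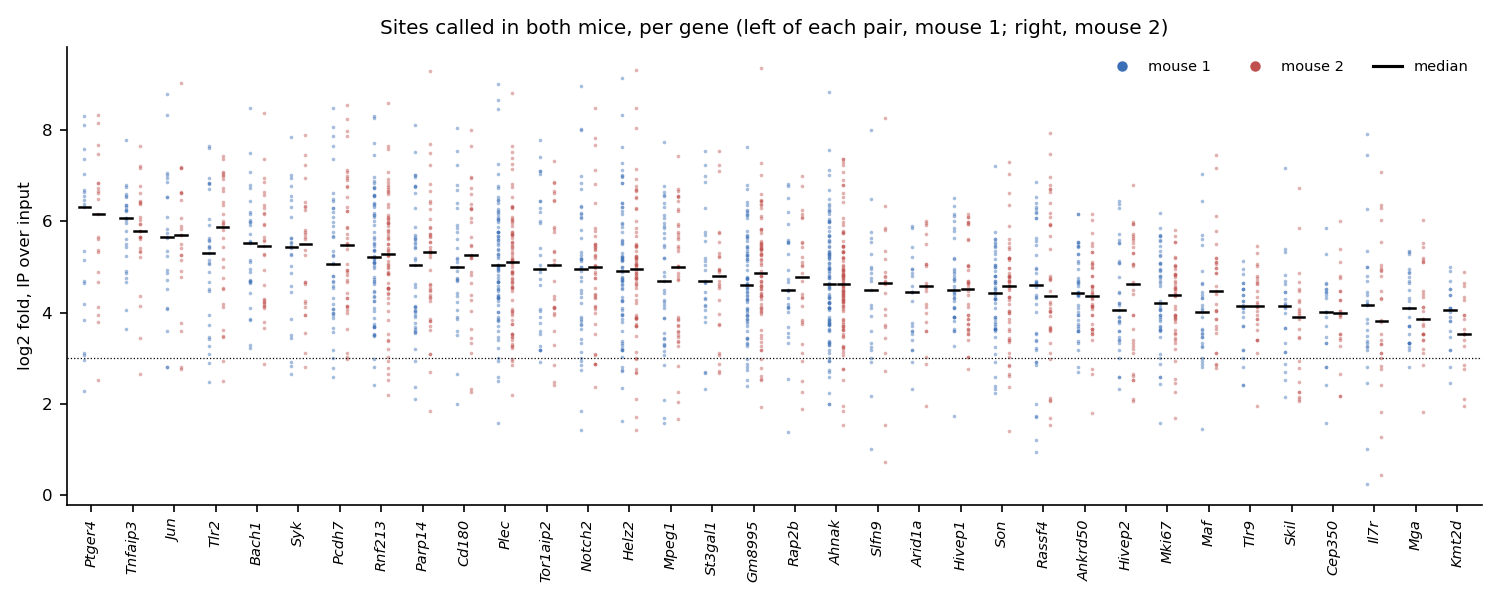
Log2 fold of IP over input of every site called in both mice in genes described in the text, with mouse 1 to the left and mouse 2 to the right of each pair, black bars for medians and the dotted line at the limit of 3. Genes are ordered by their median, from Ptger4 to Kmt2d, and the sites within each gene span several log2 units.

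A smaller group carried its sites outside coding sequence. In Rassf4, a Ras association domain protein, 34 of 40 sites of mouse 1 and 41 of 48 of mouse 2 lay in the 3' UTR, with none in coding sequence. Syk, the kinase of ITAM-coupled receptors, had 23 of 30 and 25 of 31 there, and Il7r 19 of 29 and 18 of 29. Notch2, a receptor of cell contact signalling, had 29 of 46 and 31 of 49 there. It was the only site-rich gene in a list of 27 surface receptors and transporters. Of all genes with a site in both mice, 1.14% were site-rich, and the list's median was 9 sites in each mouse. The 5' UTR share was highest in Tor1aip2 with 16 of 32 and 15 of 31 sites, St3gal1, a sialyltransferase, with 12 of 29 and 12 of 28, and Jun. The noncoding Xist, which coats the inactive X chromosome, had 35 and 34 sites, 33 of them shared, with a median of 42.6 and 47.2. Gm8995, a predicted gene on chromosome 7 that RefSeq lists as misc_RNA, had 78 and 81 sites, all in noncoding exons, and its strongest site had folds of 199 and 662. How reads from near-identical copies were counted is not given for it, nor for Irgm1 and Gm5431, so their sites are uncertain in the same way as those of Slfn8 and Slfn9. Sites at 3' splice sites were few, 16 in each mouse, and had a median fold of 3.13 and 2.89, below that of every gene. In Chpf2, an enzyme of chondroitin synthesis, 7 and 5 sites were annotated as close to a miRNA.

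Median folds in the site-rich genes were above those of the other sites in coding sequence and in both UTRs. Of their sites, 90.1% in mouse 1 (89.04% to 91.2%) and 88.3% in mouse 2 (87.1% to 89.4%) were enriched, where over all sites the shares were 81.7% and 79.1%. The median fold was 23.1 and 23.9, against 14.4 in both mice for all other sites. Other genes with 10 to 24 sites lay between, with a median fold of 19.05 and 18.3 and with 86.9% and 84.8% of sites enriched. In coding sequence the median fold of the site-rich genes was 24.6 and 25.04 against 16.05 and 15.4 for all other sites. In the 3' UTR it was 23.1 and 24.07 against 17.05 and 17.3, and in the 5' UTR 14.04 and 12.5 against 10.03 and 9.98. The median fold of 84 of the 89 genes was above that of the other sites in each mouse. These genes were chosen in the same tables, so nothing is read from the difference. The score moved with it: 37.7% and 38.7% of their sites lay in the highest of 5 equal score groups, against 18.7% of the other sites in both mice. Within that group 99.8% of their sites and 98.5% of the others were enriched in mouse 1, and within the lowest group 65.7% and 63.2%. The part of the score in the difference was not tested. Over the score groups of mouse 1, the share in coding sequence ran from 61.1% to 69.3% in the site-rich genes and from 32.2% to 41.6% in the others.

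**Figure D5:**
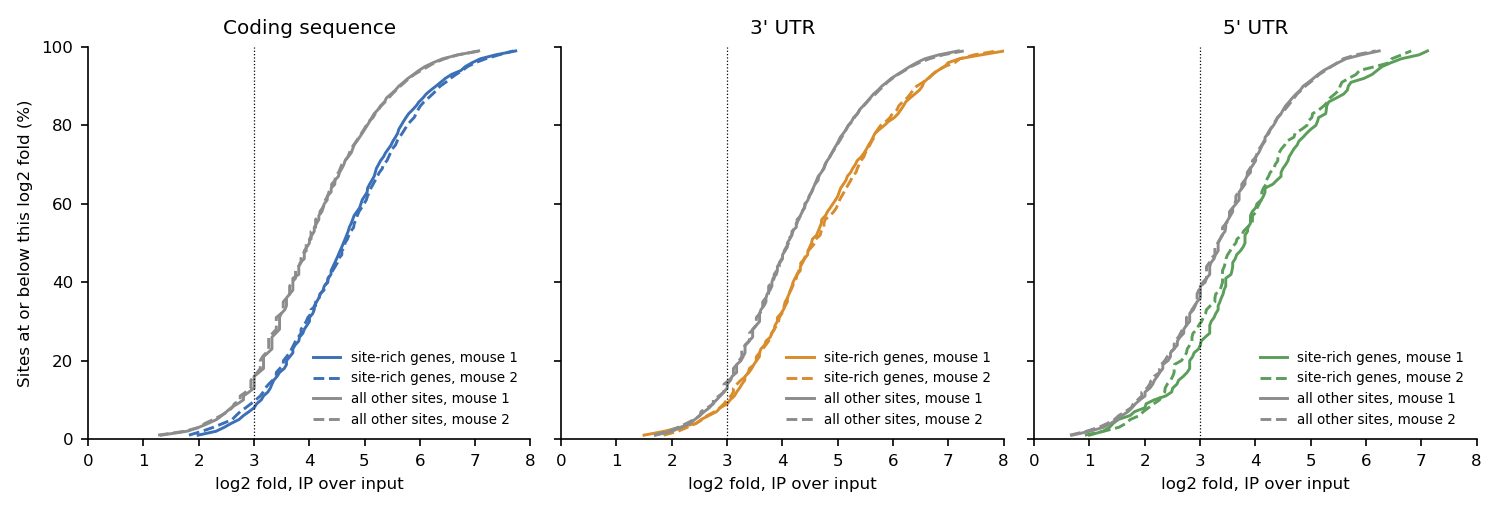
Cumulative share of sites (percent) by log2 fold of IP over input in coding sequence, 3' UTR and 5' UTR, for site-rich genes (colour) and all other sites (grey), mouse 1 solid and mouse 2 dashed; the dotted line marks the limit of 3. The coloured curves lie to the right of the grey ones, except at the lowest 3' UTR folds of mouse 1, and the curves of the mice nearly coincide.

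Within genes, coding sites had higher folds than 5' UTR sites. Among genes with at least 3 sites at both positions, the median log2 fold in coding sequence was above that in the 5' UTR in 28 of 36 genes of mouse 1 and in 28 of 35 of mouse 2, with a median difference of 0.72 and 1.03. The 3' UTR was above the 5' UTR in 21 of 25 and in 20 of 25. Coding sequence was above the 3' UTR in 37 of 58 and in 36 of 58 genes, with smaller median differences of 0.16 and 0.19. Most of the spread lay within genes: differences between genes made up 9.82% of the variance of the log2 fold in mouse 1 and 9.35% in mouse 2, and the SD within genes was 1.27 and 1.31. Taken in each mouse alone, the strongest shared site of a gene was, in the median, 5.24 and 5.16 times its median shared site. The shared site with the highest mean log2 fold over both mice was a coding site in 66 genes and a 3' UTR site in 20. In 1 gene it was a 5' UTR site, that of Fem1c, the substrate receptor of a ubiquitin ligase, with folds of 97.3 and 93.4.

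The same bases were mostly called in both mice. Of the sites of site-rich genes 2840 were shared, 90.4% of those of mouse 1 (89.3% to 91.4%) and 88.6% of those of mouse 2 (87.5% to 89.7%), where over all sites the shares were 83.4% and 79.8%. Among the shared sites 2486 were enriched in both mice, or 79.1% and 77.6% of the called sites of mouse 1 and mouse 2, against 64.1% and 61.3% over all sites. Enrichment in mouse 1 alone was found at 135, in mouse 2 alone at 114, and 105 were below the limit in both. Genes were kept only with at least 25 sites in each mouse, a choice that can favour shared bases in advance. Nothing is therefore read from how far the shared shares, or the shares enriched in both mice, lie above those over all sites. Sites called in a single mouse, 303 and 364, had lower scores, with a median of 16.5 and 16.9 against 53.3 and 56.4 for the shared ones. Within the lowest score group of mouse 1, 54.4% of the sites of site-rich genes and 49.9% of the others were called in mouse 2, and within the highest group 99.7% and 99.9%.

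The order of the sites within a gene was partly kept. Across the 2840 shared sites the log2 folds of the mice were correlated, with r = 0.73 (Pearson) and rho = 0.72 (Spearman). These are correlations across sites, which share transcripts and libraries, and carry no p. The median absolute difference was 0.59 on the log2 scale, and 1448 sites were higher in mouse 2. Within single genes rho ran from 0.17 to 0.94 with a median of 0.70, and 27 of the 89 genes had the same strongest site in both mice. The largest single differences were at a 3' UTR site of Tlr2 on chromosome 3 at 83836370, with folds of 8.60 and 86.7, and at a 3' UTR site of Plec on chromosome 15 at 76171168, with 5.68 and 52.0. The median difference over the shared sites of a gene passed 0.5 on the log2 scale in 1 gene, Maf, a transcription factor of macrophages, at 0.53 with mouse 2 higher.

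The nearest site of the same gene lay 38 bases away in the median in mouse 1 and 36 in mouse 2, and for other genes with 10 to 24 sites the distances were 39 and 38. Sites with a neighbour within 5 bases made up 6.75% and 6.71%, against 8.23% and 8.29% in those other genes. At least 10 sites fell within some 1000 bases in 81 of the 89 genes (91.01%) in mouse 1 and 85 (95.5%) in mouse 2, and in 39.2% and 38.9% of the other genes with 10 to 24 sites. The rule asks for at least 25 sites, so nothing is read from this difference. The highest number was 19, reached by Il10ra in both mice, by Irgm1 in mouse 1 and by Emilin1 in mouse 2. With sites joined into blocks where neighbours lay at most 500 bases apart, the largest block of a gene held a median of 59.3% and 60.7% of its sites over 1677 bases in both mice, at 11.6 and 11.7 sites per kb. In the other genes with 10 to 24 sites it held more, 70.0% and 69.4%, at 12.7 and 13.1 sites per kb. Distances are genomic, so an intron between sites lengthens them.

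Macrophage markers carried called sites in 10 of 10 cases (1 or more in each mouse), and so did 5 of 8 markers of neutrophils, 1 of 8 of lymphocytes, 1 of 5 of dendritic cells, and 1 of 7 from a list for erythroid, endothelial or stromal cells. None of these markers was site-rich. The number of sites is no RNA level, and the tables give neither read numbers nor RNA levels, so depth is unknown here.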

How the data were processed

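Both tables were used as deposited. Per the file headers, each row holds a 1-base site, the authors' score and the authors' ratio (fold) of read starts in the IP over the input; every listed score was above 10. The tools in the submitters' processing notes are UMI-tools 0.5.1, cutadapt 2.7 and STAR 2.6.0c, with the builds mm10 and hg38; the site caller is not given in the sources used here. Positions are 1-based interval ends in mm10. All 89 gene symbols were found in RefSeq (GRCm38.p6) and 98.8% of sites lay inside the gene.

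Members and lists were chosen with earlier results of these data known. A site was enriched at a fold of at least 8 and shared at the same base and strand. Unless given for each mouse alone, the strongest site of a gene is the shared site with the highest mean log2 fold over both mice. Genes named were the 10 with the most sites, the 5 highest and 5 lowest by median shared log2 fold, those with the highest share at each position or density, those differing most between mice, the 10 with the strongest single site, and list members. 1 gene that the rule names is not reported here, and others were chosen after their values were seen. Each fold holds a constant factor of its table (1.003 and 0.963), so a ratio of 8 gives 8.02 in mouse 1 and 7.70 in mouse 2. Scripts were tested on simulated data. Python 3.11.15, pandas 2.3.3, NumPy 2.4.6, SciPy 1.17.1 and Matplotlib 3.10.9 were used.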

Additional observations from a re-analysis of the deposited data

How the results depend on the processing

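No paired analysis was possible because the deposited fold already compares IP and input of a mouse and no result comes from a test. Against all other sites, the site-rich genes had higher shares enriched, shared and in coding sequence and a higher median log2 fold in 32 of 32 comparisons, over both mice, limits of 20, 25 and 30 sites and genes chosen in the other mouse. These gene sets overlap and come from the same 2 mice that the rule used. The comparisons are therefore not independent, and nothing is read from their number. The number of genes was 196 at 20 sites and 48 at 30, and 96 to 118 without either mouse. The share enriched fell to 66.7% and 65.8% at log2 fold 4 and was 97.8% and 97.7% at log2 fold 2; set before the table's constant, which was added after seeing the data, it was 89.5% in mouse 2. Of the enriched sites of mouse 1, 87.8% were also enriched in mouse 2. With 20 sites, coding sequence held 60.8% and 60.6%. Chosen without mouse 1, the share in coding sequence there was 64.6% and the median log2 fold 4.49; chosen without mouse 2, they were 66.7% and 4.58 in mouse 2, and the shares enriched were 89.9% and 88.4%. The median log2 fold was 4.65 and 4.72 over shared sites, 4.57 as a median over genes in mouse 1, and 4.48 and 4.49 with 20 sites.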
